A study of Homo sapiens with 4 samples.

Results

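The genes examined are 30 listed genes of mucin-type O-glycosylation: 17 GALNT genes, 9 core and extension genes, and 4 genes of mucins and mucin-like carriers. All 30 were found among the 62649 gene identifiers of the count files by matching identifier to symbol, and 25 of them had enough counts to enter the test of 24961 genes. The cells were A375, an established human melanoma line with an activating BRAF mutation. Parental cells labelled as control gave 2 libraries. The resistant group, also 2 libraries, was the same line made resistant to the BRAF inhibitor vemurafenib, whose concentration went from 0.1 up to 6.4 µM by weekly doubling. The protocols state harvest after drug treatment and name a DMSO vehicle, sorafenib and pioglitazone for the drug experiments, but not which agent, if any, these 4 libraries received or if vemurafenib was present. Nor do they state if the resistant cells were a clone or the replicates separate cultures, so the p-values rest on the spread among these 4 libraries, which may be technical.

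Mucin-type O-glycosylation takes place in the Golgi and builds short sugar chains on serine and threonine. It starts when a polypeptide GalNAc transferase, encoded by a GALNT gene, attaches N-acetylgalactosamine (GalNAc). Core enzymes then extend that sugar: C1GALT1 adds galactose to make core 1, with C1GALT1C1 (Cosmc) as its dedicated chaperone, and GCNT enzymes add a branch. Mucins and sialomucins such as MUC1, MUC16 and PODXL carry dense clusters of these chains, and truncated forms such as the Tn and sialyl-Tn antigens are known from carcinomas.

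PODXL, which encodes the sialomucin podocalyxin, was the 1 member that passed the test, and it fell 2.26-fold in resistant cells. The starting enzyme genes GALNT12 and GALNT18 and the core 2 branching gene GCNT1 had values 2.20-fold, 2.22-fold and 1.89-fold higher, with both resistant libraries above both controls, and missed the threshold. GALNT2, the most abundant starting enzyme transcript, had a mean ± SD of 159.6 ± 24.7 CPM (counts scaled to library size, n = 2) in controls against 227 ± 38.0 CPM (n = 2) in resistant cells and also missed it. C1GALT1, MUC1 and MUC16 had fold changes within 1 standard error of 0.

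Counts assigned to genes totalled between 68022689 and 87178097 per library. All counts of control replicate 1 were even numbers, as if its alignments had been entered 2 times, and a fit with that library halved left every call on members as it was. CPM uses library totals adjusted with TMM factors. RPKM is CPM per kilobase of exon and serves to compare genes with each other. Over all genes, edgeR's quasi-likelihood test, at a threshold of 0.05 on Benjamini-Hochberg adjusted p, called 144 genes higher, 0.577% of those tested, and 128 lower, 0.513%, together 1.09%. Of 12 melanoma and neural crest markers 10 reached 1 CPM in a group. CSPG4, SOX10 and ERBB3 led and made up nearly all of their summed level. PMEL, MLANA, MIA and S100A1 had 0.894 to 2.34 CPM, and TYR (at most 0.208 CPM) and DCT (at most 0.279 CPM) stayed lower. MITF had 42.2 and 22.8 CPM in the controls and 12.3 and 23.4 CPM in the resistant libraries (edgeR adjusted p = 0.371). All 6 leukocyte markers stayed below 1 CPM in both groups, with PTPRC at 0.0559 to 0.886 CPM. The 9 keratinocyte and epithelial markers had summed levels of 498 to 927 CPM in controls, highest in replicate 1, and 362 to 573 CPM in resistant cells, nearly all of it KRT8, KRT18 and KRT10. EPCAM reached 0.399 CPM and CDH1 0.549 CPM, while KRT14 was lower in resistant cells (1.62 and 2.08 against 0.309 and 0.314 CPM, edgeR adjusted p = 0.0355). The melanoma markers summed to 1558 CPM in control replicate 1 and to between 2775 and 3235 CPM in the other 3 libraries, the 8 fibroblast markers to between 12.4 and 16.7 CPM and the 4 endothelial markers to between 19.5 and 47.3 CPM, and no marker was at 0 in every library. Single markers differed more than these sums: LUM, a fibroblast marker, had 2.18 and 1.43 CPM in controls against 0.366 and 0.145 CPM (edgeR adjusted p = 0.0569, DESeq2 1.72e-04). CSPG4 (470.4 and 1121 against 1791 and 1636 CPM) and the endothelial marker KDR (16.0 and 18.9 against 44.3 and 23.6 CPM) missed the threshold in edgeR (adjusted p = 0.226 and 0.196) and passed it in DESeq2 (0.0151 and 0.0259). The part of these markers in the results was not tested.

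**Figure D1:**
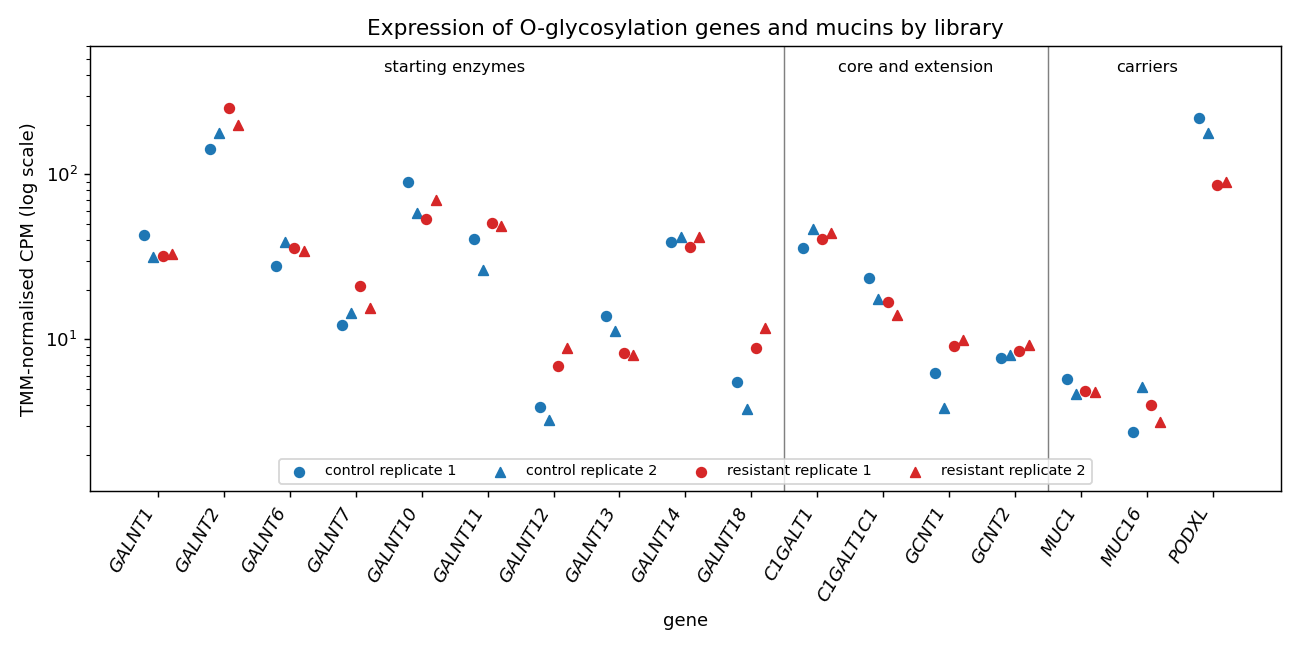
TMM-normalised CPM on a log axis for the 17 members that reached 1 CPM in a group, with controls in blue, resistant libraries in red, circles for replicate 1 and triangles for replicate 2. PODXL sits at 220.0 and 179 CPM in the controls and at 86.6 and 89.6 CPM in the resistant libraries.

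Of the 30 members, 17 reached a mean of 1 CPM in at least 1 group: 10 GALNT genes, 4 core and extension genes and 3 carriers. edgeR called 0 of the 25 tested members higher and 1 lower, against the 0.577% and 0.513% of all genes. At an unadjusted p under 0.05, 5 members were higher and 2 lower, where 6.14% and 7.32% of all tested genes were, and 7.6% and 9.31% of those with at least 1 CPM. DESeq2 called 2 higher, GALNT12 and GALNT18, and 1 lower, PODXL, where it called 2.32% and 2.53% of genes. Among the 17, both resistant libraries lay above both controls in 7 and below them in 3. For all genes of at least 1 CPM those shares were 23.8% and 24.1%.

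The median log2 fold change of the 10 GALNT genes with at least 1 CPM was 0.26, and that of the 4 core and extension genes was 0.11, beside 0.00068 for all genes of that level. Of the 10 GALNT genes, 6 had a positive sign and 4 a negative one. Among the 4 core and extension genes 3 were positive and 1 negative. The medians are descriptions of small lists, and no difference between starting and core enzymes was tested. Over all tested members the medians were 0.26 for GALNT genes and 0.25 for core and extension genes. Without control replicate 1 they were 0.062 and 0.0081. Barely detected members enter some fits and not others, so the tested sets can differ. For the 10 GALNT genes above, the middle values without control replicate 1 were GALNT10 at 0.087 and GALNT7 at 0.33. For the 4 core and extension genes they were C1GALT1 at -0.14 and GCNT2 at 0.16.

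**Figure D2:**
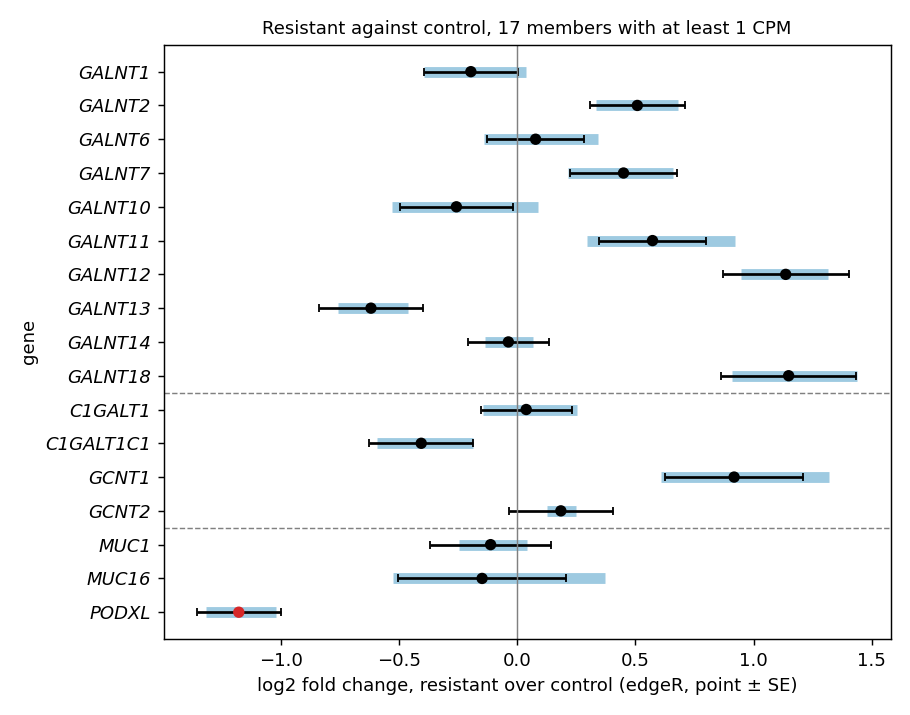
Fitted log2 fold change, resistant over control, for the same 17 members (point ± SE, edgeR), with starting enzymes, core and extension enzymes and carriers separated by dashed lines. Blue bars span the fits with 1 library left out, and the red point marks PODXL, the 1 called member, at -1.18.

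GALNT2 encodes a broadly expressed GalNAc transferase known for glycosylating lipoprotein regulators. Control replicates 1 and 2 had 142 and 177 CPM, and resistant replicates 1 and 2 had 254 and 200.2 CPM, the order used for every gene here. Both resistant values were above both controls, but the controls differed from each other by more than the higher control from the lower resistant library. The log2 fold change was 0.51 ± 0.20 (SE, edgeR adjusted p = 0.321). Exons of a gene on the opposite strand cover 13.3% of the exonic bases of GALNT2, and reads there were not counted.

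GALNT12, whose inherited loss has been linked to colorectal cancer, had 3.88 and 3.26 CPM in the controls and 6.87 and 8.82 CPM in the resistant libraries. The groups were well apart, and the log2 fold change was 1.14 ± 0.27 (edgeR adjusted p = 0.102). DESeq2 called it higher (adjusted p = 0.00494). With 1 library left out its edgeR log2 fold change ran from 0.95 to 1.31. An opposite-strand gene covers 20.9% of its exonic bases.

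GALNT18 had 5.51 and 3.81 CPM in the controls and 8.83 and 11.8 CPM in the resistant libraries, again without overlap. Its log2 fold change was 1.15 ± 0.29 (edgeR adjusted p = 0.12), and DESeq2 called it higher (adjusted p = 0.00519). With 1 library left out its edgeR log2 fold change ran from 0.91 to 1.44. No other gene overlaps its exons.

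GALNT11 encodes an enzyme that glycosylates NOTCH1 and the linker regions of LDL receptor relatives. It had 40.7 and 26.4 CPM in the controls and 50.6 and 49.0 CPM in the resistant libraries. The resistant libraries lay close together and the controls far apart, and the log2 fold change was 0.57 ± 0.23 (edgeR adjusted p = 0.327). Without control replicate 1 it was 0.92 (adjusted p = 0.0311), and without control replicate 2 it was 0.30 (adjusted p = 0.511).

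GALNT7 encodes a follow-up enzyme that acts best on peptides already carrying GalNAc. It had 12.3 and 14.5 CPM in the controls and 21.1 and 15.4 CPM in the resistant libraries (log2 0.45 ± 0.23, edgeR adjusted p = 0.459). Resistant replicate 2 was much closer to the controls than resistant replicate 1 was.

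GALNT13, a gene best known from neurons, had 13.9 and 11.3 CPM in the controls and 8.33 and 8.10 CPM in the resistant libraries. It was the 1 GALNT gene of this level with both resistant libraries below both controls, at -0.62 ± 0.22 on the log2 scale (edgeR adjusted p = 0.27).

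The other 4 GALNT genes of this level overlapped between groups. GALNT10, another follow-up enzyme, had 89.6 and 58.4 CPM in the controls and 54.0 and 69.8 CPM in the resistant libraries (log2 -0.26 ± 0.24). GALNT1, a widely expressed starter, had 42.7 and 31.6 CPM against 32.1 and 32.8 CPM (log2 -0.20 ± 0.20). Control replicate 1 was the highest library for both, and without it both signs turned (log2 0.087 and 0.037). GALNT6 had 27.7 and 38.7 CPM in the controls and 35.9 and 34.2 CPM in the resistant libraries (log2 0.08 ± 0.21), and without control replicate 1 its sign turned too (log2 -0.14). GALNT14, which has been tied to glycosylation of death receptors, had 38.9 and 41.5 CPM in the controls and 36.5 and 41.8 CPM in the resistant libraries. Its log2 fold change was -0.04 ± 0.17, and it turned positive without control replicate 2 (0.012) or without resistant replicate 1 (0.064).

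Per kilobase, and in the order of the control means, GALNT2 stood first in each library, at 20.7 RPKM on average in controls and 29.4 in resistant cells. GALNT14 (9.25 and 9.01 RPKM), GALNT1 (7.25 and 6.32) and GALNT10 (7.05 and 5.90) followed, and the last 2 did not differ from each other beyond their spread. GALNT6 (4.52 and 4.77 RPKM) and GALNT11 (4.04 and 6.01) came next, then GALNT7 (1.97 and 2.69), GALNT13 (1.90 and 1.24), GALNT18 (1.28 and 2.84) and GALNT12 (1.13 and 2.48). In resistant cells the order of means differed: GALNT11 stood above GALNT10 and GALNT6, GALNT18 above GALNT7, and GALNT13 last. The 17 GALNT genes summed to 59.7 and 58.8 RPKM in control libraries, against 72.9 and 68.9 RPKM in the resistant libraries. Core and extension genes summed to 19.1 and 17.3 RPKM in the controls and to 16.6 and 15.8 RPKM in the resistant libraries. The first sum was higher in both resistant libraries, in RPKM and in CPM (418 and 408 against 509 and 473 CPM). Of its genes GALNT2 had the largest change in mean RPKM, from 20.7 to 29.4. Of the 10 GALNT genes with at least 1 CPM, 4 had a negative log2 fold change, so the sum does not describe each gene. The sum of core and extension genes was lower in RPKM but not in CPM (73.5 and 77.1 against 75.9 and 78.5 CPM). Without the short gene C1GALT1C1 it was 6.16 and 7.51 RPKM in control libraries, against 7.32 and 7.97 RPKM, which overlap. With 2 libraries per group an exact permutation test cannot go below p = 0.333, so neither sum was tested.

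GALNT2 made up 30.9% and 39.0% of the summed GALNT RPKM in control libraries, against 45.2% and 37.7% in resistant ones, ranges that overlap. The share of GALNT12 was 2.05% and 1.75% in controls against 2.98% and 4.04% in resistant cells, and that of GALNT18 was 2.54% and 1.79% against 3.34% and 4.72%. GALNT13 had a share of 3.51% and 2.90% in the controls against 1.72% and 1.77% in the resistant libraries. GALNT1 (13.9% and 10.5% against 8.59% and 9.28%) and GALNT14 (14.99% and 16.2% against 11.5% and 14.0%) took smaller shares in both resistant libraries.

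**Figure D3:**
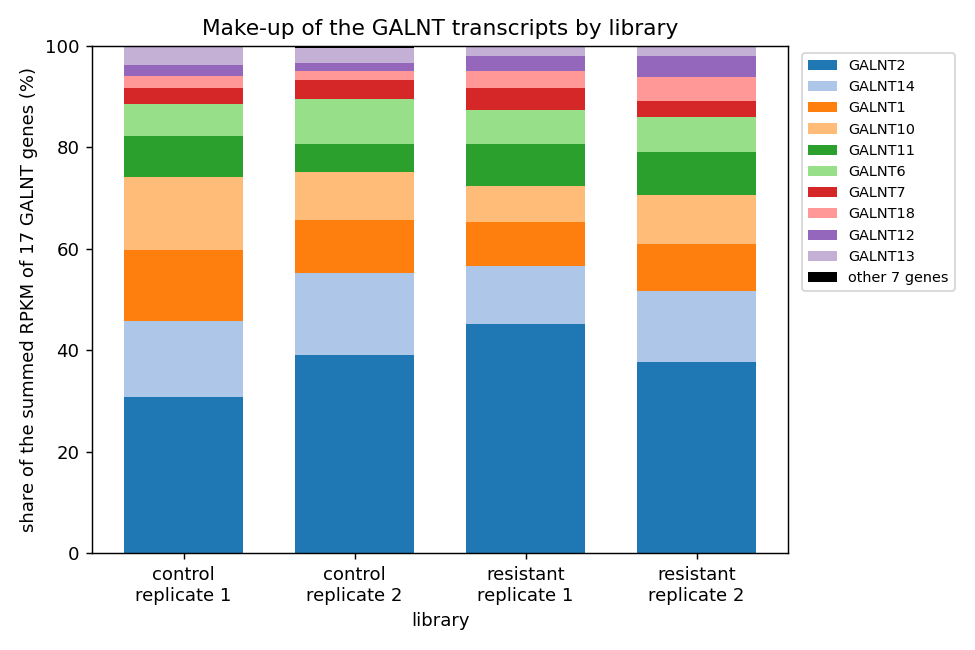
Stacked bars of each GALNT gene's share (%) of the summed RPKM of 17 GALNT genes, 1 bar per library. GALNT2 is the bottom segment of each bar, from 30.9% in control replicate 1 to 45.2% in resistant replicate 1, and GALNT12 and GALNT18 are thicker in both resistant bars.

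GALNT11 (ENSG00000178234.13) lies on chromosome 7 at 152025674 to 152122340 (GRCh38, plus strand), within the part of the long arm where resistant cells had raised expression of nearly all genes. Of the other 47 tested genes that start within 2 Mb of it, 44 had positive values. Their median was 0.95 on the log2 scale, the middle 50% lay between 0.66 and 1.202, and 9 were called higher. GALNT11, at 0.57, was below 37 of them and above 10. Between 140 and 160 Mb the median of the other 107 genes with at least 1 CPM was 0.99, and 91 of them exceeded GALNT11. On one side the adjacent tested genes were PRKAG2, a subunit gene of the energy sensor AMPK (log2 0.53, edgeR adjusted p = 0.531), and its antisense gene PRKAG2-AS1, which was called higher (log2 2.31, edgeR adjusted p = 0.0452). On the other it was ENSG00000229591 (log2 0.42), which overlaps GALNT11 on the opposite strand. KMT2C, a histone methyltransferase gene further on that side, chosen after its values were seen, was called higher (log2 1.00, edgeR adjusted p = 0.0478). Reads of either strand were counted for a gene. Exons of ENSG00000229591 cover 1.86% of the exonic bases of GALNT11, and reads there were not counted. The overlap of PRKAG2 with PRKAG2-AS1 was not measured. GALNTL5, a GALNT relative beside GALNT11, had 0 to 8 counts per library and was not tested.

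**Figure D4:**
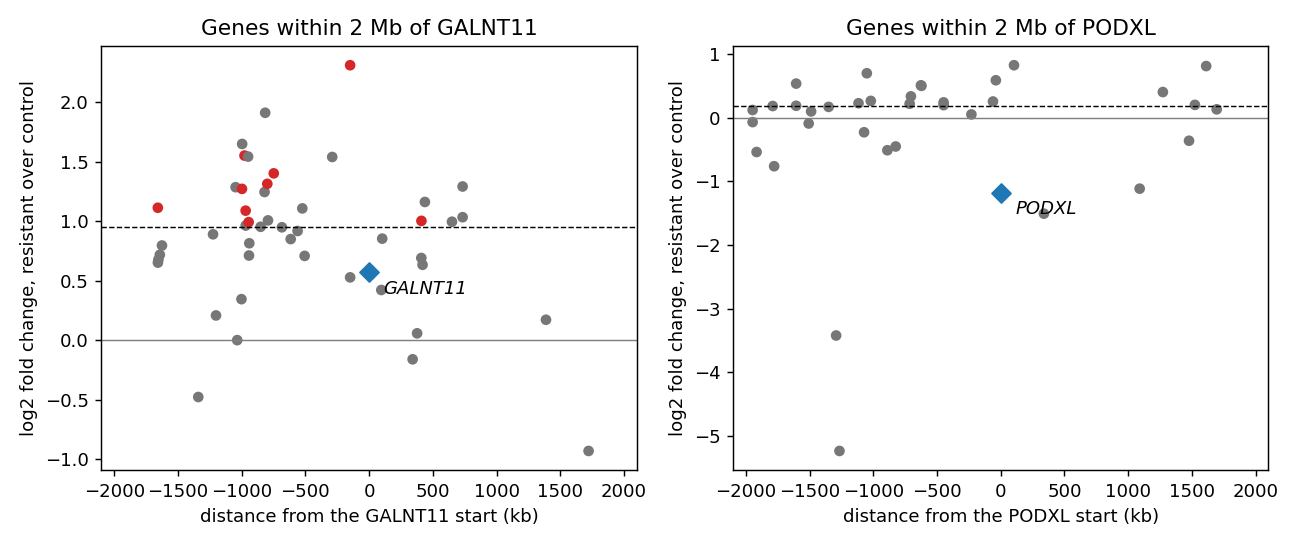
Log2 fold change, resistant over control, against the distance in kb between gene starts, for tested genes within 2 Mb of GALNT11 (left) and of PODXL (right), with called genes in red, the named gene as a blue diamond and the neighbours' median as a dashed line. GALNT11 (0.57) sits under its neighbours' median of 0.95, while PODXL (-1.18) sits far under a median of 0.19.

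C1GALT1, the core 1 synthase gene, had 35.7 and 46.9 CPM in the controls and 40.5 and 44.3 CPM in the resistant libraries. The groups overlapped, and the log2 fold change was 0.04 ± 0.19 (edgeR adjusted p = 0.965), with a sign that turned without control replicate 1 (-0.14) or without resistant replicate 2 (-0.029). Its chaperone gene C1GALT1C1 had 23.5 and 17.6 CPM in the controls and 16.9 and 14.2 CPM in the resistant libraries. Those groups were separate by a narrow margin (log2 -0.41 ± 0.22, edgeR adjusted p = 0.495). The RPKM ratio of C1GALT1 to C1GALT1C1 was 0.354 and 0.618 in control libraries, against 0.558 and 0.728 in the resistant libraries, which overlap.

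GCNT1 encodes the enzyme that converts core 1 to the branched core 2. It had 6.26 and 3.82 CPM in the controls and 9.13 and 9.89 CPM in the resistant libraries. The resistant libraries were close to each other and above both controls, and the log2 fold change was 0.92 ± 0.29 (edgeR adjusted p = 0.21, DESeq2 adjusted p = 0.0507). With 1 library left out its edgeR log2 fold change ran from 0.61 to 1.32. Relative to C1GALT1, GCNT1 stood at an RPKM ratio of 0.147 and 0.0685 in control libraries, against 0.190 and 0.188 in the resistant libraries. GCNT2, which branches poly-N-acetyllactosamine chains to make the I antigen, had 7.71 and 8.002 CPM in the controls and 8.57 and 9.29 CPM in the resistant libraries (log2 0.18 ± 0.22, edgeR adjusted p = 0.802). The groups of GCNT2 did not overlap but lay close together.

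To show the promoters of a starting enzyme and of a core component whose fold changes had opposite signs, the 250 bases upstream of the start of GALNT12 (chr9:98807420-98807669, plus strand) and of C1GALT1C1 (chrX:120630055-120630304, minus strand) are printed 5′ to 3′ from RefSeq on GRCh38.p14. Of the 30 members 22 had a RefSeq promoter entry, 6 of them with the same start base as in the count files, and PODXL, GALNT18, GALNT6, GALNT5, GALNT4, GALNT8, B3GNT6 and ST6GALNAC1 had no entry. Capitals mark the GC box, GGGCGG or its reverse complement.
GALNT12: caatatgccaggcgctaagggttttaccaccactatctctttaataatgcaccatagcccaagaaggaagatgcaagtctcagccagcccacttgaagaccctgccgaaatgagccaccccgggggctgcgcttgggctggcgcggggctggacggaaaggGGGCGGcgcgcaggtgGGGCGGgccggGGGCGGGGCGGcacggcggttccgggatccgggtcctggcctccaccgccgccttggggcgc
C1GALT1C1: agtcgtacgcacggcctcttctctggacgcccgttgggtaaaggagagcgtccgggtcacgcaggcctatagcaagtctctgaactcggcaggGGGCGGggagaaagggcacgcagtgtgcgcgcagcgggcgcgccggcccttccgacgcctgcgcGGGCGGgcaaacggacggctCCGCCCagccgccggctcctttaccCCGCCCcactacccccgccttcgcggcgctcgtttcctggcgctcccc
Each window holds 4 GC boxes, those of GALNT12 beginning 89, 73, 62 and 57 bases before the start and the last 2 sharing a base. In C1GALT1C1 they begin 157, 93, 73 and 48 bases before it, the last 2 on the opposite strand. Of 35116 RefSeq entries, 42.6% hold a GC box in the same window on either strand. The cyclic AMP response element TGACGTCA, the AP-1 motif TGANTCA, the E-box CACGTG and the TATA box TATAAA, searched on both strands, had no match in either window, and 1.65%, 6.57%, 6.34% and 10.7% of all entries held them.

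PODXL (ENSG00000128567.17, chromosome 7, 131500262 to 131558217, minus strand) encodes podocalyxin, a CD34-family sialomucin known from kidney podocytes, where its negative charge keeps cell surfaces apart. It had 220.0 and 179 CPM in the controls and 86.6 and 89.6 CPM in the resistant libraries. Both resistant values lay well below the lower control, and the groups were far apart compared with the spread inside them. The mean of PODXL fell to 88.1 ± 2.09 CPM from 199 ± 29.2 CPM (SD, n = 2 each), which is -1.18 ± 0.18 on the log2 scale (edgeR adjusted p = 0.0355, DESeq2 adjusted p = 1.48e-05). When 1 library at a time was omitted, its log2 value stayed between -1.32 and -1.02, but edgeR no longer called it without resistant replicate 1 (adjusted p = 0.0937) or without resistant replicate 2 (0.183), where the lone resistant library is taken to vary like the controls. In bulk RNA, fewer cells with the transcript and less of it per cell cannot be told apart. No other gene overlaps its exons. It lies outside the raised part of chromosome 7: of 35 tested genes that start within 2 Mb of it, 23 had positive and 12 negative values. Their median was 0.19 on the log2 scale, and edgeR called none of them. The neighbours of PODXL were examined after its values had been seen. CPA4, a carboxypeptidase gene among them, averaged 25.2 CPM in controls against 0.657 CPM in resistant cells and missed the threshold (log2 -5.24, edgeR adjusted p = 0.137).

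MUC1, the gene of a transmembrane mucin of epithelial surfaces, had 5.73 and 4.69 CPM in the controls and 4.84 and 4.79 CPM in the resistant libraries (log2 -0.11 ± 0.26, edgeR adjusted p = 0.912). MUC16, which encodes the carrier of the CA125 antigen, had 2.77 and 5.15 CPM in the controls and 4.00 and 3.16 CPM in the resistant libraries (log2 -0.15 ± 0.36, edgeR adjusted p = 0.919). Both overlapped between groups, and their signs turned with 1 library left out. Per kilobase the carriers were far apart in level: PODXL had 28.9 RPKM in controls, MUC1 2.17 and MUC16 0.0903.

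The remaining 13 members were barely detected, with 0 to 32 counts per library and at most 0.450 CPM. They were GALNT3, GALNT4, GALNT5, GALNT8, GALNT9, GALNT16, GALNT17, GCNT3, GCNT4, B3GNT3, B3GNT6 (the core 3 synthase gene), ST6GALNAC1 (the main sialyl-Tn synthase gene) and MUC13. Of these 8 entered the test and none of the 8 was called. In control replicate 1, 6 of the 13 had 0 counts, which allows up to 0.0415 CPM, or 0.083 CPM if its counts are doubled, and none had 0 counts in the other 3 libraries. B3GNT6 had 0, 18, 7 and 18 counts and ST6GALNAC1 had 0, 18, 9 and 2 counts, in the order control replicates 1 and 2, resistant replicates 1 and 2. No difference between groups is read from counts this low. GALNT4 shares 94.1% of its exonic bases with other genes, chiefly the POC1B-GALNT4 readthrough gene on the same strand, and reads shared by 2 genes were not counted, so its 14 to 31 counts are no measure of its level.

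Enzymes that cap and lengthen O-glycans, a further list of 25 genes, held 1 gene called higher and 1 called lower among 22 tested, while DESeq2 called 2 higher and 1 lower. Over all genes those shares were 0.577% and 0.513% in edgeR and 2.32% and 2.53% in DESeq2. CHST2, a sulfotransferase gene for N-acetylglucosamine, had 3.49 and 3.67 CPM in the controls and 9.75 and 12.9 CPM in the resistant libraries. It rose 3.16-fold (log2 1.66 ± 0.25, edgeR adjusted p = 0.036), and was not called when resistant replicate 2 was left out (0.199). B3GNT7, whose enzyme lengthens N-acetyllactosamine chains, had 62.7 and 64.2 CPM in the controls and 30.5 and 27.3 CPM in the resistant libraries. It fell 2.20-fold (log2 -1.13 ± 0.17, edgeR adjusted p = 0.0342), and was not called without resistant replicate 1 (0.0648) or resistant replicate 2 (0.195). In both genes the replicates of a group lay close together and the groups far apart.

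Others of that list with the lowest p did not pass. B3GALT5, a type 1 chain galactosyltransferase gene, had 2.18 and 5.91 CPM in the controls and 11.8 and 16.2 CPM in the resistant libraries (log2 1.79 ± 0.44, edgeR adjusted p = 0.118, DESeq2 adjusted p = 2.61e-04). Its log2 fold change was 2.69 without control replicate 2 (edgeR adjusted p = 1.41e-04) and 1.25 without control replicate 1 (0.0162). B4GALT1, a galactosyltransferase gene, had 110.2 and 144 CPM in the controls and 213 and 194 CPM in the resistant libraries (log2 0.68 ± 0.19, edgeR adjusted p = 0.159). ST6GALNAC2, which adds sialic acid to the first GalNAc, had 2.35 and 2.08 CPM against 1.18 and 1.15 CPM (log2 -0.92 ± 0.32, edgeR adjusted p = 0.248). Other genes cover 59.1% of the exonic bases of ST6GALNAC2, and reads there were not counted. The list had a median log2 fold change of 0.10 over its tested genes, beside 0.0056 for all tested genes.

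**Figure D5:**
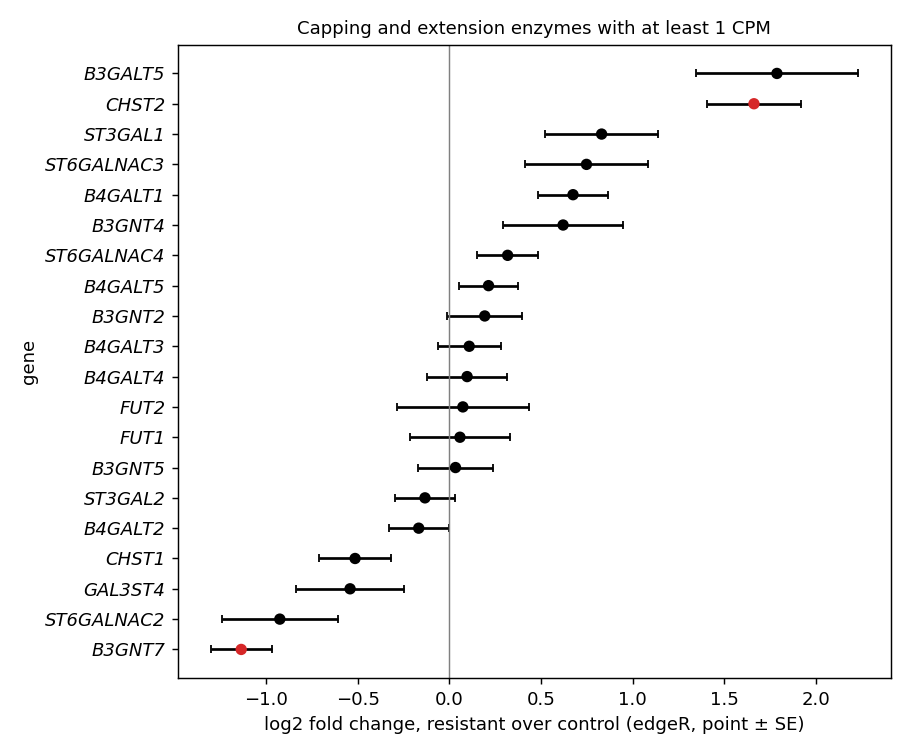
Fitted log2 fold change, resistant over control, for the 20 capping and extension enzyme genes with at least 1 CPM in a group (point ± SE, edgeR), ordered by value. The called genes, in red, are CHST2 at 1.66 and B3GNT7 at -1.13.

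Genes that supply the sugar donors had 0 calls among 20 tested, with 2 higher and 0 lower at an unadjusted p under 0.05 in edgeR (6.14% and 7.32% of all genes), 0 calls in DESeq2 and a median log2 fold change of -0.092. GFPT1, the gate enzyme of the hexosamine pathway, had 107 and 212 CPM in the controls and 259.8 and 323 CPM in the resistant libraries (log2 0.87 ± 0.31, edgeR adjusted p = 0.267). Control replicate 1 stood far below the other 3 libraries for GFPT1. PGM3, a mutase of the same pathway, had 27.97 and 24.8 CPM against 43.8 and 33.3 CPM (log2 0.55 ± 0.20, edgeR adjusted p = 0.281), and NANP, a phosphatase of sialic acid synthesis, had 25.7 and 15.05 CPM against 13.2 and 13.7 CPM (log2 -0.60 ± 0.27, edgeR adjusted p = 0.395). Without control replicate 1 the log2 fold change was 0.46 for GFPT1 and -0.16 for NANP. Without control replicate 2 it was 1.45 for GFPT1 and -0.93 for NANP. Among 4 further GALNT relatives GALNTL6 alone reached 1 CPM (log2 0.38 ± 0.32, edgeR adjusted p = 0.694).

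Of 34 other mucins and mucin-domain proteins 28 were tested and none was called by edgeR or DESeq2, with 2 higher and 1 lower at an unadjusted p under 0.05, where 6.14% and 7.32% of all genes were. MUC5B, a gene of a secreted gel-forming mucin, had 39.3 and 82.8 CPM in the controls and 109.3 and 109.2 CPM in the resistant libraries (log2 0.84 ± 0.31, edgeR adjusted p = 0.293). Its 2 controls differed more than the higher control and the resistant libraries did, and the log2 fold change was 1.48 without control replicate 2 (adjusted p = 7.71e-04) and 0.40 without control replicate 1 (0.677). PODXL2, the gene of the podocalyxin relative endoglycan, had 8.08 and 4.80 CPM in the controls and 12.2 and 10.5 CPM in the resistant libraries (log2 0.82 ± 0.29, edgeR adjusted p = 0.272), the opposite sign to PODXL. MUC5AC had 1.26 and 2.41 CPM against 0.647 and 0.980 CPM (log2 -1.17 ± 0.44, edgeR adjusted p = 0.293).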

How the data were processed

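RNA-seq counts per gene of 4 libraries were used. The deposited values are raw counts, which the authors made with featureCounts 2.0.0 against GENCODE release 42 on duplicate-marked alignments, per the file headers. An annotation and an output name were its sole options, so by its defaults reads were counted without strand, mates singly, and reads of several genes or places left out. STAR, DESeq2 and GRCh38 are named in the submitters' processing notes. Per the labels, libraries were polyA-selected and stranded. The sample numbers in 2 file names differ from the labels, and each file was taken as the record it was deposited under. A further table of log fold changes with no named comparison was not used.

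Of 62649 identifiers 62625 matched a symbol. Genes kept by filterByExpr (24961) were scaled with TMM and tested with edgeR's quasi-likelihood test (R 4.3.3, edgeR 4.0.16), group as sole term, two-sided, Benjamini-Hochberg threshold 0.05. SE is the absolute log2 fold change over the square root of F. DESeq2 1.42.0, other scalings, other filters, 1 library left out, control replicate 1 halved and the replicate number as a block were alternatives. The fit was tested on simulated counts. Counts of the 2 libraries of a group differed by far more than Poisson sampling gives (chi-square over degrees of freedom of 118 for controls and 63.1 for resistant cells). A count of 3 is 0.0344 to 0.0441 CPM, or 0.083 CPM in control replicate 1 if its even counts are doubled, and floors cover counting error only.

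Members, lists and alternatives were chosen with earlier results of these data known. Members whose higher group mean reached 1 CPM are given by library. Of other lists, called genes are named, and up to 3 more with the lowest p and at least 1 CPM. Neighbours of GALNT11 are tested genes starting within 2 Mb. Promoter sequences are from RefSeq.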

Additional observations from a re-analysis of the deposited data

How the results depend on the processing

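The direction of PODXL, GALNT12, GALNT18, GALNT13, GALNT2, GALNT7, GALNT11, C1GALT1C1, GCNT1, GCNT2, CHST2 and B3GNT7 held under all alternatives run. Of the calls, PODXL, B3GNT7 and CHST2 held with DESeq2, other scalings, other filters and control replicate 1 halved. Genes called numbered 272 in all, 1866 without a low count filter, 176 at a mean of at least 1 CPM, 1210 with DESeq2, and 16 (without resistant replicate 2) to 2166 (without control replicate 2) with 1 library left out. Members called higher numbered 3 without a filter, 2 with DESeq2 and 0 to 4 with 1 library left out, the 4 without control replicate 1. Members called lower numbered 0 to 1 with 1 library left out. Among all genes, 905 of 44966 were called higher without a filter, against 144 of 24961 in the main fit. With 1 library left out, a group holds 1 library, so counts of members called higher in those fits are not given. With the replicate block, 64 genes and 0 members lower were called, and PODXL (log2 -1.17, edgeR adjusted p = 0.0709), B3GNT7 (0.0696) and CHST2 (0.0691) were not called. Deviations from the group means correlated at 0.0022 between same-numbered libraries across 10089 of the more highly expressed genes, which are not independent. With 2 libraries per group this is a single comparison, and it cannot tell if same-numbered libraries were handled together. Medians were taken over the members that entered each fit, a set that differed between settings. The median log2 fold change of GALNT enzymes was 0.158 without a filter, 0.203 with DESeq2 and 0.062 to 0.318 with 1 library left out. That of core and extension enzymes was 0.345 without a filter, 0.107 at a mean of at least 1 CPM, 0.341 with DESeq2 and 0.0081 to 0.497 with 1 library left out. The DESeq2 medians are the values of barely detected genes, GALNT8 (0 to 3 counts per library) and GCNT3 (11 to 26 counts). The median of the carriers was -0.319 to 0.062 with 1 library left out, again over the members that entered each fit. For the 3 carriers tested with all libraries, the middle value was MUC1 at -0.25 without control replicate 2. Without control replicate 1 it was MUC16 at -0.53. Log2 fold changes that changed sign with 1 library left out ranged from -0.39 to 0.037 for GALNT1, -0.14 to 0.34 for GALNT6, -0.53 to 0.087 for GALNT10, -0.14 to 0.064 for GALNT14, -0.14 to 0.25 for C1GALT1, -0.25 to 0.040 for MUC1 and -0.53 to 0.37 for MUC16. The cause of these shifts was not tested. A fit with 1 library left out rests on the spread of the other group. The 13 members under 1 CPM rest on at most 32 counts per library.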

Other observations

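Other kinds of protein O-glycosylation, among them O-mannose, O-fucose and O-GlcNAc, were covered by 20 genes, all of them tested. edgeR called none of the 20, with 1 higher and 4 lower at an unadjusted p under 0.05, and DESeq2 called 1 lower. Over all tested genes the unadjusted shares were 6.14% and 7.32%, those among genes with at least 1 CPM 7.6% and 9.31%, and the DESeq2 share called lower 2.53%. Their median log2 fold change was -0.10. MFNG and LFNG are Fringe genes, whose enzymes lengthen O-fucose on NOTCH receptors. They were named for being among the 3 genes of the list with the lowest p, and both had lower values in resistant cells. RFNG, another Fringe gene, was not among those 3. MFNG had 5.45 and 7.78 CPM in the controls and 3.50 and 3.19 CPM in the resistant libraries (log2 -0.98 ± 0.28, edgeR adjusted p = 0.166, DESeq2 adjusted p = 0.0445). LFNG had 14.4 and 7.38 CPM in the controls and 5.64 and 5.39 CPM in the resistant libraries (log2 -0.98 ± 0.33, edgeR adjusted p = 0.243). Control replicate 1 was the highest library for LFNG, and without it the log2 fold change was -0.42. The log2 fold change of MFNG was -0.70 without control replicate 2. POMGNT2, an O-mannose enzyme gene acting on dystroglycan, had 22.7 and 21.1 CPM in the controls and 15.2 and 14.7 CPM in the resistant libraries (log2 -0.55 ± 0.18, edgeR adjusted p = 0.236).

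Among 19 genes of glycan breakdown and Golgi trafficking edgeR called none, with 1 higher and 1 lower at an unadjusted p under 0.05, and DESeq2 called 1 lower, beside the same shares over all genes. GLB1, the lysosomal beta-galactosidase gene, had 50.5 and 43.3 CPM in the controls and 29.3 and 28.5 CPM in the resistant libraries (log2 -0.70 ± 0.17, edgeR adjusted p = 0.118, DESeq2 adjusted p = 0.0451). COG3, a subunit gene of the Golgi tethering complex, had 22.7 and 33.4 CPM in the controls and 41.3 and 42.7 CPM in the resistant libraries (log2 0.58 ± 0.22, edgeR adjusted p = 0.292). GALNS, a lysosomal sulfatase gene, had 13.8 and 20.6 CPM in the controls and 29.6 and 22.0 CPM in the resistant libraries (log2 0.58 ± 0.25, edgeR adjusted p = 0.38).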
